A study of Caenorhabditis elegans with 2 samples.

Results

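atx-2 and K12H4.5 are 2 protein-coding genes on chromosome III of Caenorhabditis elegans whose promoters held some of the strongest nuclear ChIP-seq peaks of PHA-2 in late embryos. They were chosen by the measured signal itself: theirs were the only nuclear peaks among the 25 highest of the optimal list whose closest annotated gene start was that of a protein-coding gene. They are 2 of the 19985 protein-coding genes of the annotation, and 2 of the 560 with an optimal summit from 1000 bp upstream to 500 bp downstream of their 5′ end, called the promoter window below. The strain, OP687, has the genotype unc-119(tm4063) III; wgIs687 and carries a transgene for PHA-2 with a GFP-FLAG tag at its C-terminus. Whole embryos of both sexes were taken 3 h after egg bleaching, and an antibody against GFP was used for the precipitation. The 2 biological replicates form 1 group, without another genotype, treatment or stage to set them against. The tagged protein came from this transgene and the material was whole organisms, so the lists do not tell in which cells a peak arose.

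PHA-2, a homeodomain protein of the Hex type, is required for the pharyngeal isthmus, the narrow part of the feeding organ. Homeodomains of this kind bind short AT-rich sites built around a TAAT core. ATX-2 is the worm homolog of ataxin-2, a conserved RNA-binding protein with an LSm domain that acts on mRNA translation and associates with poly(A)-binding protein, and in C. elegans it is needed in the germline and the early embryo. The protein of K12H4.5 is listed by RefSeq as uncharacterized, and no role is given to it here.

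The sequence under each summit is shown because the results turn on these 2 places. Each run is the plus strand of WBcel235 (the assembly also named ce11), centred on the optimal summit and read from the RefSeq genome. Capitals mark the 6-base GA repeat GAGAGA, which appears on its other strand as TCTCTC, and the word GTCTCAG. The atx-2 run is chrIII:10461182-10461480 and its last 92 bases lie inside the annotated gene. The K12H4.5 run is chrIII:8043809-8044107 and lies wholly between genes.
atx-2: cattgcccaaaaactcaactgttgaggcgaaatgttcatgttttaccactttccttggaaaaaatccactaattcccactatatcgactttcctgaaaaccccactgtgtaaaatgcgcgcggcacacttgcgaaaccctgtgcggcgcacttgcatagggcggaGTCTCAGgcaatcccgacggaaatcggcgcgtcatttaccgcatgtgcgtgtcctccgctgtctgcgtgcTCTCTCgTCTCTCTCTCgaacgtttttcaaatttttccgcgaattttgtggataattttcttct
K12H4.5: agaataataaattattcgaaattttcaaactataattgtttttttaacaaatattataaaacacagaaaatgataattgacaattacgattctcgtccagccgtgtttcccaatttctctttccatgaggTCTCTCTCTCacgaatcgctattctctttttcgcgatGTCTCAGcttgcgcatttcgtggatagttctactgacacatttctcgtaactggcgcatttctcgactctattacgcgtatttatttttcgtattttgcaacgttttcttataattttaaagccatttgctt

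On ce11, 4 peak lists were read, and every signal value in them was set by the authors' peak caller on a scale that is not stated. The optimal list is the one the authors kept by IDR (irreproducible discovery rate), and it held 878 peaks, of which 856 were nuclear. The relaxed lists held 30000 peaks for the pooled replicates, 23371 for replicate 1 and 24336 for replicate 2. Read counts are not part of these lists, and the depth is unknown. Of the 25 highest optimal peaks, 16 were mitochondrial and 9 nuclear, and the only 2 of them on chromosome III were those of K12H4.5 and atx-2.

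At K12H4.5 the lists held a single strong peak. In the optimal and pooled lists it spanned 8043804 to 8044125 with its summit at 8043958, 529 bp upstream of the 5′ end, and it had a signal of 803. Its signal was 400.2 in replicate 1 and 399.5 in replicate 2. The replicates were thus nearly equal at this place, with a replicate 2 to replicate 1 ratio of 0.998. The median ratio was 0.904 over the 852 nuclear optimal peaks matched to a peak in both replicate lists. Over the 25 strongest nuclear peaks the median was 0.959. The K12H4.5 peak ranked 18 of 878 in the optimal list, 21 of 23371 in replicate 1 and 20 of 24336 in replicate 2. Among nuclear optimal peaks it ranked 4 of 856. The summit stood at the same base in replicate 1 and 2 bp further downstream in replicate 2.

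At atx-2 the strong peak lay at the start of the gene. It spanned 10461170 to 10461476, had its summit at 10461331, 58 bp upstream of the 5′ end, and a signal of 680 in the optimal and pooled lists. The signal was 333 in replicate 1 and 343 in replicate 2, a ratio of 1.03. This peak ranked 24 of 878 in the optimal list, 27 in replicate 1 and 26 in replicate 2, and 9 of 856 among nuclear optimal peaks. The replicate summits lay 63 bp (replicate 1) and 64 bp (replicate 2) upstream of the gene start, 1 bp from each other. Over nuclear optimal peaks the 2 replicate summits were a median of 29 bp apart, with quartiles of 10 and 67 bp, and over the 25 strongest nuclear peaks the median was 14 bp, with a range of 1 to 106 bp. The 1 bp of atx-2 and the 2 bp of K12H4.5 were thus at the low end of a range that other strong peaks share.

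**Figure D1:**
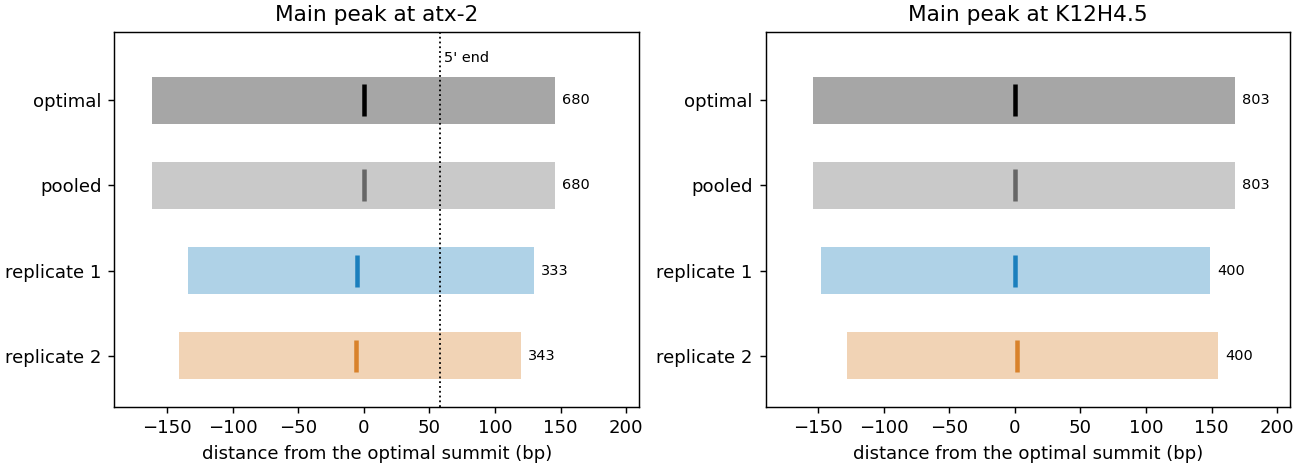
Extent of the main peak (bars) and its summit (vertical ticks) in each of the 4 ce11 lists, in bp from the optimal summit, with the signal value printed at the right of each bar and the atx-2 5′ end as a dotted line. The atx-2 summits lie within 6 bp of each other and the K12H4.5 summits within 2 bp, and the pooled signals (680 and 803) are about the sum of the replicate signals.

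The pooled signal of a peak was close to the sum of its replicate signals, with a ratio of 1.006 at atx-2, 1.004 at K12H4.5 and a median of 1.000 over nuclear optimal peaks. A pooled value is therefore on a scale of its own and is not compared with a replicate value here. Against the median of 158 for nuclear optimal peaks, the signal was 5.10 times as high at K12H4.5 and 4.31 times at atx-2. Both intervals were narrower, 322 bp at K12H4.5 and 307 bp at atx-2, than the 456 bp that 87.9% of optimal peaks shared. They resembled the other strong nuclear peaks in this: the 25 strongest had widths from 160 to 472 bp. The deposited q-value does not separate these peaks from many others, since both held the top −log10 q of 2.07 together with 531 optimal peaks in all. The replicates shared 1 control, per the deposited text, and its part in these signals was not tested.

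**Figure D2:**
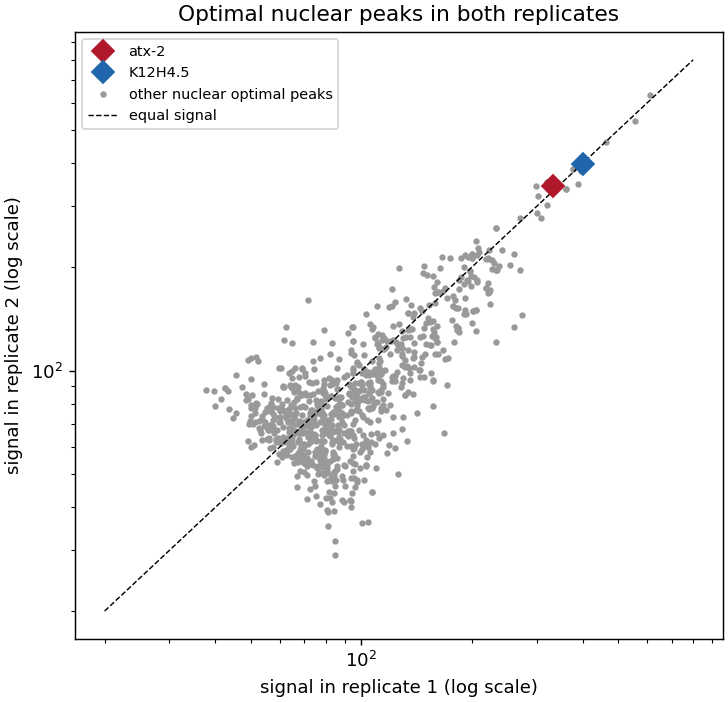
Signal in replicate 1 against replicate 2, both on log axes, for the 852 nuclear optimal peaks matched to a peak in both replicate lists. Neighbouring optimal peaks can share a matched replicate peak. Diamonds mark atx-2 and K12H4.5, and a dashed line marks equal signal. Both genes lie next to the line at the high end, K12H4.5 at 400.2 and 399.5, atx-2 at 333 and 343.

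Few protein-coding genes had any optimal summit nearby. Over all 19985, 2.8% held one in the promoter window and 10.5% had one within 5 kb of the gene. These shares are given as background only, since the 2 genes were selected on such a summit. Within 5 kb of the gene body, each of them had exactly 1 optimal summit. The median window signal of the 560 protein-coding genes with a summit there was 159. Of the same 560 genes, 12 had a higher window signal than K12H4.5 and 15 a higher one than atx-2, the first 12 being mitochondrial. Above atx-2 there were also K12H4.5 itself, sre-23 (776) and F55A11.11 (752). The sre-23 summit lay at −617 bp of that gene and at −58 bp of the snoRNA gene ZK265.10. The F55A11.11 summit lay at −188 bp of that gene and at −31 bp of the snoRNA gene F55A11.10.

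Both summits stood between genes that point away from each other. The atx-2 summit lay in a gap of 837 bp, 58 bp from atx-2 and 780 bp upstream of the 5′ end of ecps-1, which encodes a homolog of the proteasome-associated protein Ecm29. It therefore fell in the promoter windows of both genes, and the lists do not tell which start it belongs to. The K12H4.5 summit lay in a gap of 1611 bp, 529 bp from K12H4.5 and 1083 bp upstream of K12H4.6, for which RefSeq gives an uncharacterized protein. Of the 856 nuclear optimal peaks, 270 (31.5%) lay in such head-to-head gaps, with a median gap of 1952 bp, as did 7 of the 25 strongest nuclear peaks.

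K12H4.5 is short, 294 bp at 8044487 to 8044780, with 1 annotated transcript and no annotated 5′ UTR. It stands first in a row of genes on the plus strand. After a gap of 236 bp comes spcs-3, a subunit of the signal peptidase complex, then after 102 bp K12H4.3, a homolog of the ribosome biogenesis protein BRX1, and after 99 bp K12H4.2, which RefSeq names mals-1 after the assembly of the mitochondrial ribosome. The summit lay 1059 bp upstream of spcs-3, just outside its promoter window. The assignment of this peak to K12H4.5 rests on nearness only.

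atx-2 spans 10461389 to 10468051 and has 4 annotated transcripts. The one with the most upstream start, D2045.1d.1, gave the distance of 58 bp. The transcripts D2045.1a.1 and D2045.1c.1 start 239 and 324 bp further downstream, and the summit lay at −297 and −382 bp of their starts. The start of D2045.1b.1 is inside the gene, with the summit at −3125 bp.

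Weak summits near the genes were far below the main ones. The relaxed pooled list held 6 summits within 5 kb of atx-2 and 3 within 5 kb of K12H4.5, the main ones included, where the median protein-coding gene had 3. Near atx-2, the second highest signal was 76.8, at a summit 175 bp upstream of cul-1, a cullin gene, and the main peak was 8.85 times as high. Replicate 2 had a summit at the same base (46.1), and the nearest one of replicate 1 lay 30 bp upstream of cul-1 (33.3). A second pooled summit there, 25 bp inside cul-1, had 47.1, with 22.8 at the same base in replicate 2. Inside atx-2, a pooled summit with a signal of 49.1 (rank 13190 of 30000) lay 47 bp downstream of the start of D2045.1b.1, in a coding exon. Replicate 1 had a summit 52 bp downstream of that start (27.8) and replicate 2 had none within the gene body. The pooled list also held summits of 44.4 in a coding exon of D2045.5, a gene for a protein kinase, and of 36.2 at 26 bp upstream of its start. In replicate 1 alone there was a summit of 25.6 at 174 bp upstream of ecps-1 and one of 24.4 in an atx-2 intron, and in replicate 2 alone one of 25.9 in a coding exon of ecps-1.

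Near K12H4.5 the weak summits lay at the start of the next gene. In the pooled list they had signals of 48.2, at 111 bp upstream of spcs-3, and 42.4, at 89 bp inside it, and the main peak was 16.7 times as high as the first. Replicate 1 had summits of 31.8 at the first of these bases and of 31.1 at 97 bp inside spcs-3, and replicate 2 had no summit within 5 kb other than the main one. No list had a summit between the main peak and the point 5 kb upstream of the gene. Over nuclear optimal peaks with another pooled summit within 5 kb of their own, 826 in all, the main signal was a median of 2.06 times the strongest of those summits. It was 16.7 times at K12H4.5, where 2 peaks had a higher ratio, and 13.8 times at atx-2, where 3 did. For atx-2 this reach, counted from the summit, leaves out the summit near cul-1, which gave 8.85 within 5 kb of the gene. Much of the contrast counted from the summit was shared by other strong peaks. Over the 25 strongest nuclear peaks that ratio had a median of 8.46 and ranged from 1.77 to 17.1. The signal that chose the members enters this ratio.

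**Figure D3:**
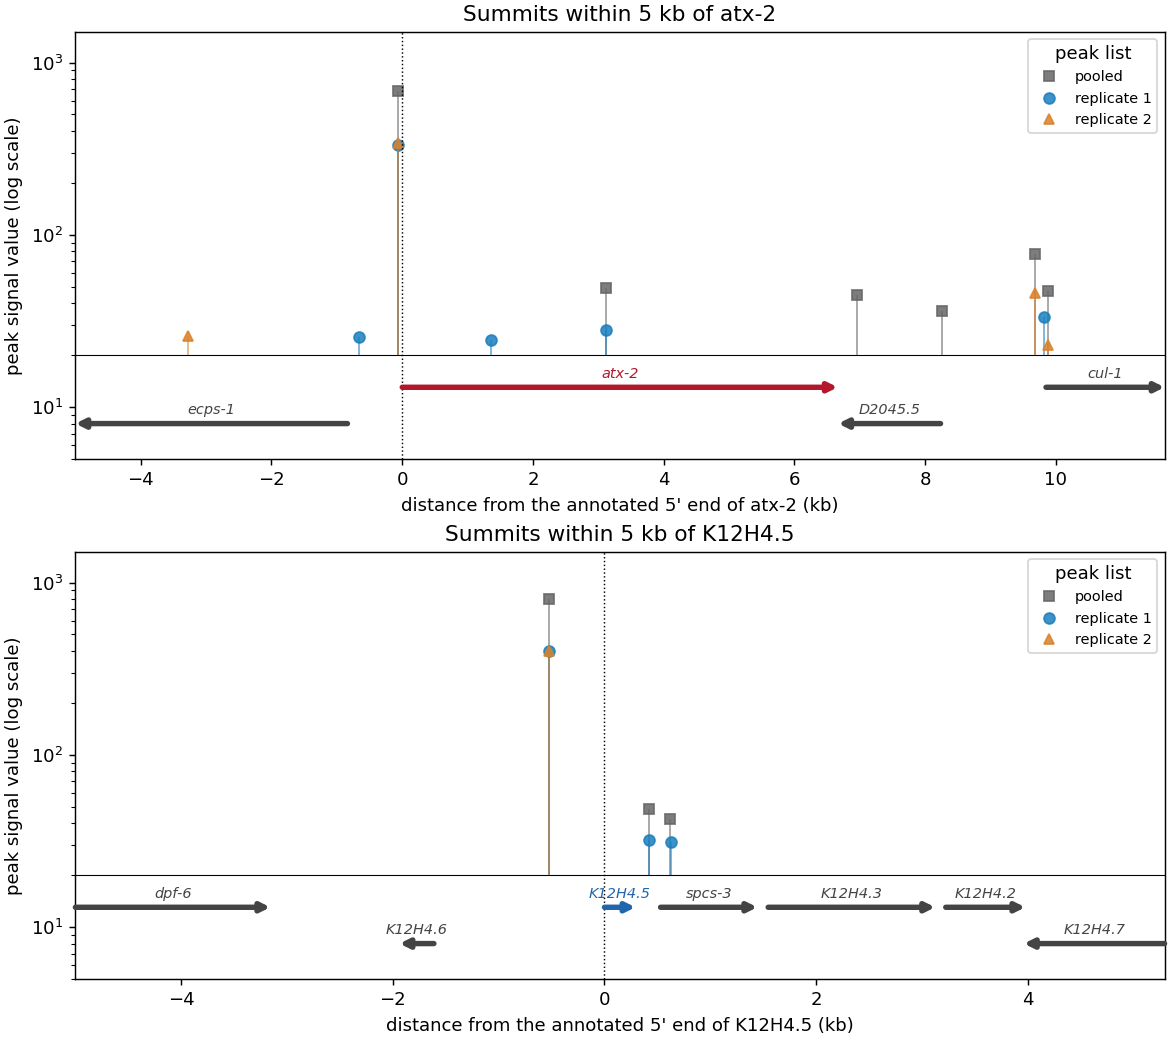
Summits of the pooled list (squares), replicate 1 (circles) and replicate 2 (triangles) within 5 kb of each gene, by distance from its 5′ end in kb and signal on a log axis, above arrows for the annotated genes in their direction. At each gene 1 place stands alone, at 680 (atx-2) and 803 (K12H4.5) in the pooled list, and all other pooled summits are at or below 76.8.

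No RNA gene was annotated within 5 kb of either gene, by Ensembl or by RefSeq. For K12H4.5 the nearest of any kind was the ncRNA gene K12H4.11, 15221 bp from the summit, and the nearest tRNA, snoRNA or snRNA gene was a tRNA gene (WBGene00023107) at 25447 bp. For atx-2 the nearest was the ncRNA gene D2045.10 at 23012 bp, and the nearest of the structural classes was the snoRNA gene H04D03.5 at 28855 bp. The nearest microRNA genes, cel-mir-356a and cel-mir-1020, were 183702 bp (K12H4.5) and 413516 bp (atx-2) away. Among the 25 strongest nuclear peaks, 22 had an annotated RNA gene within 100 bp of the summit, the farthest of them at 70 bp. The 3 without one, even within 5 kb, were K12H4.5, atx-2 and the peak 35 bp upstream of ears-2 (16900 bp from the nearest, signal 586), a gene for an aminoacyl-tRNA synthetase. Over all 856 nuclear optimal peaks, 317 (37.0%) had an RNA gene within 100 bp and 583 (68.1%) within 5 kb. The members were chosen as peaks whose closest gene start was protein-coding, which leaves out peaks with an RNA gene start nearer. Their place in this split is therefore largely set by the choice.

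**Figure D4:**
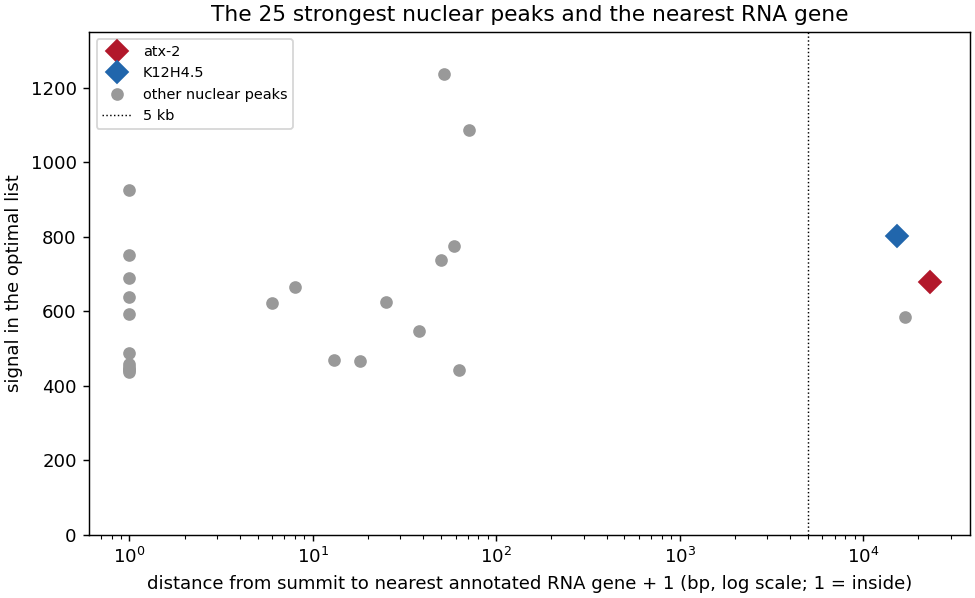
Signal of the 25 strongest nuclear optimal peaks against the distance from the summit to the nearest annotated RNA gene plus 1 bp (log axis), with atx-2 and K12H4.5 as diamonds and a dotted line at 5 kb. The peaks fall into 22 at 70 bp or less and 3 beyond 5 kb, the 2 genes at 23012 and 15221 bp and ears-2 at 16900 bp. The 2 genes were chosen for a protein-coding start closest to the summit, and this choice enters their distances.

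Just inside the limit of 25 peaks, atx-2 (680) stood between the peak at the start of the microRNA gene cel-mir-52 (690, rank 23) and a mitochondrial peak at COX3 (676, rank 25). Just outside it, rank 26 had a signal of 666 and its summit at −7 bp of the ncRNA gene F52D10.7 and at −577 bp of ftt-2, a 14-3-3 gene. The peak at rank 27 (640) lay in the ncRNA gene F36H1.17. K12H4.5 stood between a mitochondrial peak (873, rank 17) and ZK265.10 (776, rank 19). Further down, the next peaks in a protein-coding promoter window were those of ears-2 (rank 32) and of T02E1.2 (547, rank 34), the second with the snoRNA gene T02E1.9 nearer.

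Among other protein-coding genes with an optimal summit in the promoter window, ftt-2 was closest to atx-2 in its replicate signals (319 and 354), at a distance of 0.07 on the log2 scale over the 2 replicates and 542 genes compared. F55A11.11 followed at 0.24 and sre-23 at 0.29. For K12H4.5 the closest were sre-23 (396 and 380, distance 0.07) and F55A11.11 (376 and 386, distance 0.10), and then atx-2 itself at 0.35, of 543 genes. Each of these genes other than atx-2 had an RNA gene start nearer to the summit, which the rule that chose the members does not allow.

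The sequences at the 2 summits differed in base composition. In a window of 150 bp on either side of the summit, G and C made up 33.6% of the bases at K12H4.5 and 47.8% at atx-2, against a median of 43.2% over nuclear optimal peaks, of which 90 were at or below the value of K12H4.5. Over the 25 strongest nuclear peaks the range was 33.6% to 56.8% with a median of 44.9%, K12H4.5 being the lowest of them. In the central 51 bp the shares were 47.1% at K12H4.5 and 60.8% at atx-2, in both cases above those of the wider window. For the central 51 bp no share over other peaks is given here, so whether a richer centre is particular to these genes is not known. No long second copy of either printed run was found in the genome. A BLAST search at an E-value of 0.001 found no other hit for atx-2 and 2 for K12H4.5, the longer of 47 bp.

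Of 14 short motifs searched on both strands in these windows, overlaps between motifs allowed, each gene had 4. GAGAGA was in both, with 4 matches at atx-2 and 3 at K12H4.5, counting overlapping ones, and was held by 42.9% of nuclear optimal windows and by 21.8% of windows of the same length at protein-coding starts (250 bp before to 50 bp after the 5′ end). At K12H4.5 the matches lay from −19 to −10 bp of the summit. At atx-2 they lay from 86 to 102 bp downstream of it, inside the annotated gene. All were on the minus strand, so that the printed runs show TCTCTC. The homeodomain core TAAT was also in both, 8 times at K12H4.5 and 2 times at atx-2, but it is common, in 84.0% of nuclear optimal windows and 95.3% of start windows. The nearest TAAT was centred at −65.5 bp of the summit at K12H4.5 and at −78.5 bp at atx-2. Within 75 bp on either side of the summit, 0 of the 14 motifs were in both genes.

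The remaining matches were in 1 gene each. CAATTA, a core of Hex-type sites, had 3 matches at K12H4.5 and 0 at atx-2, and is in 14.0% of nuclear optimal windows and 23.6% of start windows. TATAAA had 1 match at K12H4.5 (23.8% and 38.0%). GCGCGC had 1 match at atx-2, centred at −31.5 bp of the summit (17.1% and 3.58%), and so did TTTCAG, the letters of a splice acceptor (26.6% and 51.7%). The letters of the internal tRNA promoter boxes were in neither window, GTTCGANTC for the B box (9.23% of nuclear optimal windows and 0.566% of start windows) and TGGCNNAG for the A box (17.3% and 7.16%). The homeodomain palindrome TAATTA was in neither window, against 10.3% of nuclear optimal windows and 15.6% of start windows. The E box letters CACGTG were absent from both as well (4.44% and 5.84%). So were the letters searched for Fox factors, which are TGTTTAC and stand in 4.79% of nuclear optimal windows and 4.78% of start windows. For GATA factors CTTATC was searched, with 0 matches in either gene (7.94% and 16.8%). For T-box factors TCACAC was searched, again with 0 matches (14.8% and 12.4%). The letters for AP-1, TGACTCA, also had 0 matches (2.34% and 3.63%). No match says only that these letters are not in these windows.

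The word GTCTCAG stood at nearly the same place in both windows, on the plus strand and centred 19 bp downstream of the summit at atx-2 and 21 bp at K12H4.5. It was noticed after the sequences were read, among the 20 distinct words of 7 or more bases that the windows shared. It is in 21 nuclear optimal windows (2.45%), both members included, in 1.05% of windows 1 kb away and in 1.25% of start windows. These shares count the word anywhere in a window, so they give no background for its position.

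Genes related to ataxin-2 by partnership, protein fold or the growth pathway TOR, which ATX-2 is known to act on in worms, were read from 3 lists. Of 21 listed partners and RNA regulators 20 were found in the annotation. Of these, 0 had an optimal summit in the promoter window, against 2.8% of protein-coding genes. In a random draw of 20 genes a count of 0 would allow a share of up to 15%, but this list was chosen by hand. Relaxed pooled summits were in the windows of 16 of the 20 (80.0%), against 39.6% of all protein-coding genes, with a median signal of 63.8 against 52.4. The highest was pab-2 (113, rank 1038), which encodes a poly(A)-binding protein, followed by gtbp-1 (109), a G3BP homolog of stress granules, ifet-1 (103.0) and cgh-1 (102.9), both of translational repression in germline granules. The partner gene szy-20, an RNA-binding protein at centrosomes, had 83.0, and gld-1, which encodes a translational repressor, had no pooled summit in its window. Of 15 genes for Sm and LSm proteins, the family whose fold ATX-2 shares, 1 had an optimal summit, snr-1 (431, rank 49), a core Sm protein gene, and 7 (46.7%) a pooled one. Of 10 genes of the TOR pathway, 2 had one, rict-1 (137, rank 641) and ragc-1 (122, rank 839), which encode a subunit of TOR complex 2 and a Rag GTPase, and 7 (70.0%) had a pooled one. The median pooled signal in the window was 83.7 in the Sm and LSm list and 56.9 in the TOR list. The optimal signals of snr-1, rict-1 and ragc-1 were below those of both members, and with so few genes nothing particular to a list is read from these counts.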

How the data were processed

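ChIP-seq peak lists of 1 group with 2 biological replicates were used. Per the labels and the text deposited with each library, the lists are on ce11 and ce10, replicates and their pool were called against a control, and the optimal list was derived by IDR from these. For the aligner and the peak caller, tool and settings: not given in the sources used here. The control was not analysed here. The unit of the deposited signal value (column 7) is not stated. The −log10 q-value is as deposited, and a summit is the start plus the deposited offset. All ce11 peaks fit in the chromosomes of WBcel235, to which Ensembl release 115 (46926 genes) and RefSeq annotation refer. No coordinate was moved between assemblies, and of ce10 only the optimal list was used, for ranks.

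Ranks are by signal within a list. An optimal peak was matched to the strongest replicate summit inside it, else to the nearest within 250 bp. The same replicate peak could be matched to neighbouring optimal peaks, so some replicate values enter the medians and ranges over optimal peaks repeatedly. Genes to be named were the members, their neighbours, the peaks next to them in rank, the 3 protein-coding genes most alike in replicate signal, and listed genes with an optimal summit. Words shared by the 2 windows, the ears-2 peak, and listed genes lacking an optimal summit were singled out with their values in view. The members, lists and motifs were chosen with earlier results of these data known. With 1 group and genes chosen by signal, no test was made. The steps were tested on made-up peaks. Python 3.11.15, pandas 2.3.3, numpy 2.4.6 and BLAST+ 2.17.0 were used. Alternatives were other windows, ranking rules, gene starts, lists and single replicates.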

Additional observations from a re-analysis of the deposited data

How the results depend on the processing

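The 2 peaks were the only optimal summits within 5 kb of their genes in every setting tried for that count (2 kb, 10 kb, 5 kb from the start, the 878 highest peaks of either replicate). Pooled signals were close to the sum of the replicate signals, so single replicates gave lower values. Leaving out 1 replicate gave 333 to 343 at atx-2 and 399.5 to 400.2 at K12H4.5, ranks of 26 to 27 and 20 to 21, and summits at −64 to −63 bp and −529 to −527 bp. Among nuclear peaks the ranks were 9 for atx-2 and 4 for K12H4.5, with 1 peak per interval 21 and 16, and by q-value 266 for each, since 531 peaks tie. The midpoint of the peak lay at −66 bp for atx-2 and −522.5 bp for K12H4.5. Of the 14 motifs, windows of 75 bp on either side held 2 at atx-2 and 3 at K12H4.5, against 4 each with 150 bp, and 0 were in both genes, since GAGAGA and TAAT were then at K12H4.5 alone. Protein-coding genes with an optimal summit numbered 1272 within 2 kb and 3338 within 10 kb, against 2104 within 5 kb. With a window of 500 bp upstream only, 1 of the 2 genes, atx-2, kept its summit, because that of K12H4.5 lies at −529. On ce10, 2 chromosome III peaks were again among the 25 highest, at ranks 18 and 24. No paired analysis was possible because there is 1 group and no test. Depth is unknown, so no precision can be given for the weak summits: among the 5000 highest pooled peaks, 2 of 6 summits near atx-2 and 1 of 3 near K12H4.5 were left.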

Other observations

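The 2 windows shared 20 distinct words of 7 or more bases on either strand, found after the sequences were read and so given as values only. The longest, GTCTCTCTCTC, has 11 bases and lies in the GA repeats, centred 97 bp downstream of the summit at atx-2 and at −15 bp at K12H4.5. It is in 13 nuclear optimal windows (1.52%), both members included, in 0.117% of windows 1 kb away and in 0.240% of windows at protein-coding starts. AAATGCGC, at −34.5 bp of the atx-2 summit, is on the other strand 31.5 and 74.5 bp downstream of the K12H4.5 summit. It is in 36 nuclear optimal windows (4.21%), both members included, in 0.584% of windows 1 kb away and in 1.53% of start windows. Other shared words differed among themselves. TTTTCAAA is in 11.8% of nuclear optimal windows, 20.7% of windows 1 kb away and 20.8% of start windows, while AACGTTTT is in 3.27%, 3.15% and 4.09% of them. Whether PHA-2 or the control is related to any of these words was not tested.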
